A study of Macaca fascicularis with 11 samples.

Results

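SNRPN and NNAT were followed across the cells of cultured cynomolgus monkey embryos. They are 2 of the 19367 genes in the corrected count matrix, listed there as ENSMFAG00000042235 and ENSMFAG00000033180. Both were chosen by their Day 10 levels, where they lead the epiblast cells, so those levels are given as a description, and the tests compare only libraries of Day 12 and Day 14. The fits between genotypes and between days took in the Day 10 libraries for the estimate of the spread. The symbols come from the study's own tables of genes that mark or distinguish cell groups in these embryos: SNRPN is listed there for Day 14 epiblast cells, amnion and mesoderm, NNAT for mutant against wild-type amnion. Results on those same contrasts are therefore not independent evidence.

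Imprinted genes are expressed mainly from the copy inherited from one parent, and DNA methylation set in the germ line marks which copy that is. SNRPN encodes SmN, a protein of the core of the spliceosome that is known from brain and pluripotent cells, and it is expressed from the paternal copy of the Prader-Willi region. NNAT encodes neuronatin, a small membrane proteolipid known from developing brain, and it is also expressed from the paternal copy. Counts from droplet libraries do not tell the parental copies apart, so what follows concerns levels only. In the RefSeq annotation of a later cynomolgus assembly (T2T-MFA8v1.1), SNRPN overlaps SNURF and NNAT overlaps BLCAP. Neither neighbour was paired with a row of the matrix, so their levels are not given. Whether reads of an overlapping gene entered the counts of SNRPN or NNAT was not tested. SNRPN also has a close paralog, SNRPB.

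The embryos were Macaca fascicularis blastocysts cultured in vitro to Day 10, Day 12 or Day 14. Wild-type embryos gave 6 libraries (2 per day, 12 embryos), and embryos injected as zygotes with Cas9 and 2 guide RNAs against ISL1, a LIM-homeodomain transcription factor, gave 5 (1 at Day 10, 2 at Day 12 and 2 at Day 14, 11 embryos). The injected embryos are mosaics that carry indels of various sizes, and each library pooled 1 to 3 embryos, so p-values measure the spread between pooled libraries.

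The corrected matrix held 33330 cells, with 36654977 to 164808415 UMIs per library and a median of 10916 to 142180 UMIs per cell. A unique molecular identifier (UMI) stands for a captured transcript. Of 33205 barcodes, 124 occurred in more than 1 library. Clusters were named from marker genes as Epi-derived-like (2762 cells, the epiblast and what arises from it), trophoblast-like (22629), endoderm-like (499) or extraembryonic mesenchyme-like, written ExE-Mech-like (6548), and 892 cells stayed unnamed. In every library that held the lineage, the 8 markers of Epi-derived, the 14 of trophoblast and the 10 of ExE-Mech all had UMIs. At least 9 of the 10 endoderm markers did. These lists named the clusters, and markers of a lineage also had UMIs in other lineages, so this is no check of the names. For instance, all 8 Epi-derived markers had UMIs in ExE-Mech-like cells. The wild-type Day 12 replicate 1 library stood apart: it held 14 Epi-derived-like cells, and its endoderm-like cells carried 5593 CPM of trophoblast markers, against 83.2 to 1740 in the other libraries. Levels are given as CPM, the UMIs of a gene summed over the cells of a lineage in a library and scaled to the total of that sum over all genes (counts per 1e6 UMIs). In amnion-like cells the level of ISL1 was 114 and 139 CPM for wild-type and 254 and 191 for mutant embryos of Day 14, which does not check the edit because reads from the transcript's 3' end can come from edited copies.

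SNRPN was highest in Epi-derived-like cells and had UMIs in every lineage. At Day 10 its level in Epi-derived-like cells was 677 and 474 CPM in the wild-type libraries and 757 in the mutant library. These values chose the gene, and they stood 18.8 to 72.5 times above trophoblast-like and 6.45 to 8.91 times above endoderm-like cells of the same library. At Day 12 the level was 835 and 602 in wild-type and 909 and 617 in mutant libraries, and at Day 14 it was 845 and 505 in wild-type and 787 and 872 in mutant libraries. The libraries of the 3 days thus covered overlapping ranges.

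In ExE-Mech-like cells SNRPN stood between 204 and 368 CPM in the 7 libraries of Day 12 and Day 14 that held them, with a median of 297. Endoderm-like cells held 38.8 to 161 (median 113, 8 libraries) and trophoblast-like cells 4.63 to 28.7 (median 10.0, 8 libraries). Epi-derived markers had a median level of 221 in trophoblast-like and 12155 in Epi-derived-like cells, so the trophoblast-like SNRPN level is not shown to exceed RNA from other cells. No 2 of the 4 lineages overlapped in these ranges. In each of the 8 libraries the Epi-derived-like level exceeded that of trophoblast-like and endoderm-like cells, and in each of the 7 it exceeded that of ExE-Mech-like cells by 1.67 to 3.16 times.

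**Figure D1:**
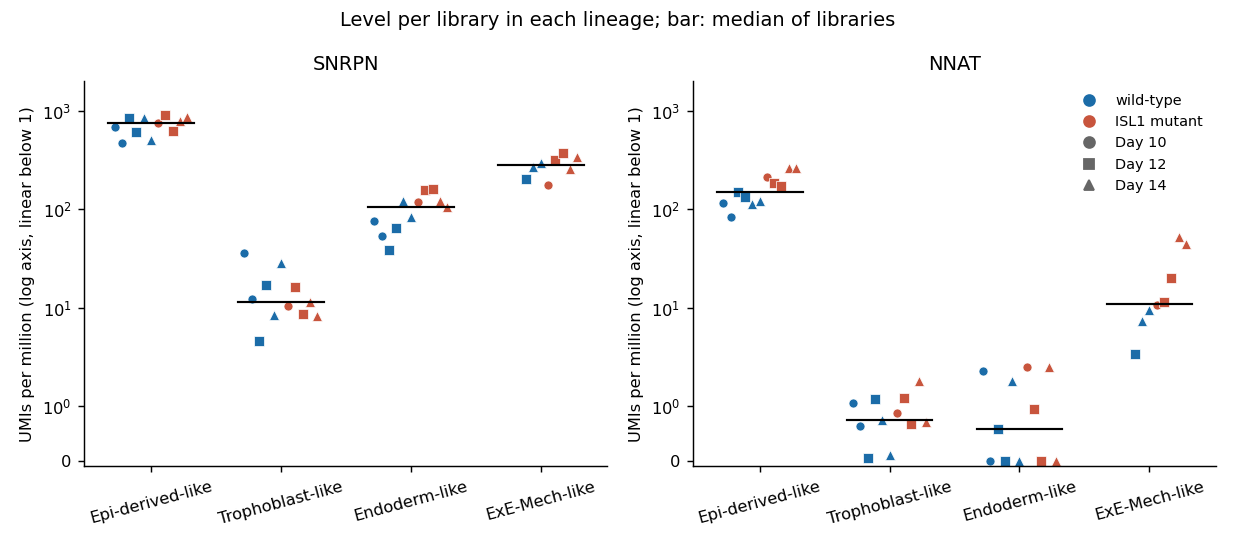
Levels of SNRPN and NNAT in CPM (vertical axis, logarithmic above 1 and linear below) for each lineage; a point is a library, colour gives the genotype, shape the day, and the bar the median over libraries. SNRPN falls into 4 levels from Epi-derived-like to trophoblast-like cells, whereas NNAT lies at or below 2.49 in every endoderm-like and trophoblast-like sum.

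NNAT was found mainly in Epi-derived-like cells. At Day 10 Epi-derived-like cells held 115 and 82.4 CPM in the wild-type libraries and 213 in the mutant library, again the values that chose the gene. At Day 12 the level was 148 and 133 in wild-type and 185 and 173 in mutant libraries, and at Day 14 it was 113 and 120 in wild-type and 265 and 263 in mutant libraries. At Day 12 and Day 14 every mutant library was above every wild-type library, but neither day's difference passed 1% in the edgeR fit (0.31 ± 0.239 at Day 12, adjusted p = 0.70, and 1.21 ± 0.241 at Day 14, adjusted p = 0.039).

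Outside the Epi-derived-like cells, NNAT was measurable mainly in ExE-Mech-like cells, with 3.40 to 52.8 CPM over 7 libraries. Trophoblast-like cells held 0.0478 to 1.80. Endoderm-like cells held 9 NNAT UMIs in all over the 8 libraries of Day 12 and Day 14, and none in 4 of them, so their level was at the limit of what this depth can show.

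The lineages were compared on summed UMIs at Day 12 and Day 14 with edgeR's quasi-likelihood test, with the library as a block, over 12261 genes and at a false discovery rate of 1%. For SNRPN the fitted difference between Epi-derived-like and trophoblast-like cells was 6.02 ± 0.326 on the log2 scale (SE; 64.7-fold; edgeR adjusted p = 2.4e-13). Against endoderm-like cells it was 3.09 ± 0.296 (8.51-fold; adjusted p = 1.1e-08), and against ExE-Mech-like cells 1.48 ± 0.285 (2.78-fold; adjusted p = 0.00011). Endoderm-like cells were in turn below ExE-Mech-like cells by a log2 difference of -1.61 ± 0.291 (adjusted p = 6.4e-05), and trophoblast-like cells below endoderm-like cells by -2.93 ± 0.30 (adjusted p = 1.6e-08). All neighbours in the order Epi-derived, ExE-Mech, endoderm, trophoblast therefore differed.

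For NNAT the difference was 7.89 ± 0.443 against trophoblast-like cells (237-fold; edgeR adjusted p = 4.3e-13), 7.46 ± 0.629 against endoderm-like cells (adjusted p = 1.5e-09) and 3.46 ± 0.386 against ExE-Mech-like cells (11-fold; adjusted p = 7.3e-08). Endoderm-like and trophoblast-like cells, which stood next to each other in the order, did not differ beyond their spread (log2 difference -0.43 for trophoblast minus endoderm, 95% interval -2.58 to 1.73, adjusted p = 0.75). Endoderm-like cells were below ExE-Mech-like cells (-4.00 ± 0.748, adjusted p = 9.7e-05). The fitted values against endoderm rest on those 9 UMIs. Both members were higher in Epi-derived-like cells in each of the 3 comparisons. Calls were common: 61% of all genes passed against trophoblast (34.1% higher), 43.1% against endoderm (24% higher) and 46.7% against ExE-Mech (24.2% higher). Between the other lineages 49.1% passed for trophoblast against endoderm, 50.5% for trophoblast against ExE-Mech and 41.4% for endoderm against ExE-Mech.

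Some of these calls depended on the libraries or on how cells were assigned. With wild-type libraries alone SNRPN no longer passed 1% between Epi-derived-like and ExE-Mech-like cells (log2 difference 1.70, adjusted p = 0.026) or between endoderm-like and ExE-Mech-like cells (-1.76, adjusted p = 0.022), and NNAT no longer passed between the last pair (-2.80, adjusted p = 0.107). Without the wild-type Day 12 replicate 1 library the SNRPN difference between Epi-derived-like and endoderm-like cells was 2.92 (adjusted p = 2.2e-08). When each cell was instead given the lineage of its highest marker list, NNAT in endoderm-like cells no longer passed against ExE-Mech-like cells (-0.79, adjusted p = 0.26) and was above trophoblast-like cells (trophoblast minus endoderm -3.69, adjusted p = 4.0e-05).

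The Epi-derived-like cells held 1360 Epi-like and 292 amnion-like cells, and 974 stayed without a subtype. Both genes were higher in Epi-like cells, the undifferentiated epiblast, than in amnion-like cells, the epithelium that closes over it. SNRPN in Epi-like cells ran from 707 to 1284 CPM over the 8 libraries of Day 12 and Day 14, with a median of 1094. In amnion-like cells it was 178 and 303 for wild-type at Day 14, 199 in the mutant Day 12 replicate 2 library and 167 and 180 in the mutant Day 14 libraries. The 2 ranges did not overlap, and the fitted difference was -2.59 ± 0.265 (6.01-fold lower in amnion-like cells; edgeR adjusted p = 0.00016).

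NNAT in Epi-like cells ran from 148 to 429 CPM, with a median of 253. In amnion-like cells it was 36.5 and 53.9 for wild-type at Day 14, 46.2 in the mutant Day 12 library and 132 and 175 in the mutant Day 14 libraries. Of the mutant Day 14 amnion-like values, 175 lay within the Epi-like range and 132 below it. In each of the 5 libraries with both subtypes amnion-like cells were the lower. The fitted difference was -2.06 ± 0.257 (4.18-fold lower; edgeR adjusted p = 0.00028). Of all 10114 genes tested, 15.8% passed and 6.32% were lower in amnion-like cells. Fitted without the library as a block, NNAT no longer passed (-1.87, adjusted p = 0.018).

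Mesoderm-like cells were found in 1 library, wild-type Day 14 replicate 1, as 136 cells. They held 595 CPM of SNRPN and 46.3 of NNAT, against 1284 and 217 in the Epi-like cells of the same library. SNRPN did not pass the test (log2 difference -1.02 ± 0.499, adjusted p = 0.45), and neither did NNAT (-2.07 ± 0.505, edgeR adjusted p = 0.053), although NNAT passed with DESeq2 (adjusted p = 0.0082). The mesoderm-like sum has no replicate, and both tools take the spread from the sums of the other subtypes. Of all genes 1.75% passed. The mesoderm-like cells fell into 2 subclusters, with 24.4 (82 cells) and 75.7 (54 cells) CPM of NNAT, on either side of the 36.5 in the amnion-like cells of the library, and with 616 and 566 CPM of SNRPN, above the 178 there.

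**Figure D2:**
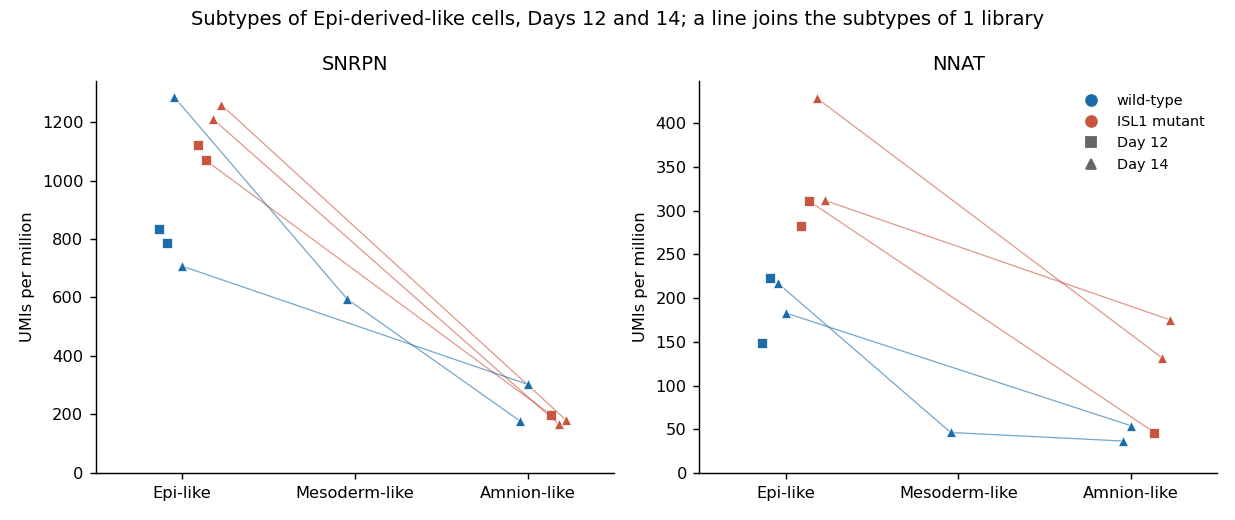
Levels of SNRPN and NNAT in CPM (vertical axis, linear) in subtypes of Epi-derived-like cells at Day 12 and Day 14; a point is a library, colour gives the genotype, shape the day, and a line joins subtypes of the same library. In every joined pair the amnion-like value is below the Epi-like value.

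Mutant embryos were compared with wild-type embryos to ask what reduced ISL1 function changes. At Day 14 the NNAT levels of both mutant libraries lay above those of both wild-type libraries in Epi-derived-like, ExE-Mech-like and amnion-like cells. No difference passed 1% in the edgeR fit. Amnion-like cells are part of the Epi-derived-like cells of the same libraries. The share of all genes whose libraries separate by genotype in this way was not counted, here or elsewhere in the text. Nothing is therefore read from such a separation by itself. In Epi-derived-like cells the log2 difference was 1.21 ± 0.241 (2.32-fold, 95% interval 0.59 to 1.83; edgeR adjusted p = 0.039), and without the Day 10 libraries it was 1.21 ± 0.232 (adjusted p = 0.058, with 2 genes called). With all libraries 9 of 12382 genes were called there (0.0727%), 8 of them higher (0.0646%), and 2595 had an unadjusted p under 0.05. DESeq2 called NNAT (adjusted p = 0.0015), as did the edgeR fit without a filter on low counts (adjusted p = 0.0025). Before the correction for ambient RNA the levels were 110 and 120 CPM in wild-type and 244 and 255 in mutant libraries. ExE-Mech markers moved with the genotype in these cells, at 113 and 108 CPM in wild-type and 783 and 515 in mutant libraries, and so did trophoblast markers, at 377 and 144 against 920 and 524. The part of either in the result was not tested.

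The Epi-derived-like class did not hold the same subtypes in every library, since the mesoderm-like cluster was found in wild-type Day 14 replicate 1 only. Restricted to Epi-like cells, NNAT was 217 and 183 CPM in wild-type and 429 and 312 in mutant libraries at Day 14, a log2 difference of 0.97 ± 0.271 (edgeR adjusted p = 0.051, where 0.96% of 10521 genes passed). At Day 12 the Epi-like values were 148 and 223 in wild-type and 283 and 311 in mutant libraries (0.67 ± 0.269, adjusted p = 0.43, where 0.0095% passed). The summed level of the Epi marker genes moved with NNAT here. In Epi-like cells it was 2778 and 2029 CPM in the wild-type and 27268 and 12587 in the mutant libraries of Day 14. The sum was not split by gene, so a single gene could carry it. The part of these markers in the result was not tested.

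In ExE-Mech-like cells NNAT was 3.40 CPM in the wild-type Day 12 library and 7.36 and 9.46 in the wild-type Day 14 libraries. The mutant libraries held 11.4 and 19.9 at Day 12 and 52.8 and 44.7 at Day 14. Every mutant library thus exceeded every wild-type library. The Day 12 difference, against a single wild-type library, was 2.25 ± 0.469 and did not pass (edgeR adjusted p = 0.29), and the Day 14 difference was 2.64 ± 0.339 (6.23-fold, 95% interval 1.56 to 3.72; edgeR adjusted p = 0.062). In this lineage the edgeR fit called 0 of 12813 genes at Day 14, with 2119 at an unadjusted p under 0.05, while DESeq2 called 215 genes, NNAT among them (adjusted p = 2.1e-08). Epi-derived markers did not move with NNAT: their summed level in ExE-Mech-like cells was 315 and 255 in the wild-type and 208 and 199 in the mutant libraries of Day 14. ExE-Mech markers themselves were at 4423 and 8038 in the wild-type and 9986 and 15085 in the mutant libraries, and the part of this in the result was not tested.

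In amnion-like cells, where the study's own tables list NNAT for this contrast, the wild-type Day 14 levels of 36.5 and 53.9 and the mutant ones of 132 and 175 CPM gave a fitted difference of 1.84 ± 0.373 (3.57-fold, 95% interval 0.23 to 3.44; edgeR adjusted p = 0.048) that did not pass. Of 8258 genes 14 were called (0.17%), and 76 with the batch number as a block. DESeq2 gave an adjusted p of 0.0395. Leaving out the wild-type Day 14 replicate 1 or replicate 2 library made NNAT pass (1.57, adjusted p = 0.0033, and 2.13, adjusted p = 8.3e-05), while leaving out the mutant Day 14 replicate 2 library took it to 1.44 (adjusted p = 0.46). The summed level of the 7 Epi markers moved with NNAT at Day 14 in these cells too. It was 460 and 717 in the wild-type and 2207 and 5418 in the mutant Day 14 libraries. In the mutant Day 12 library it was 2358, where NNAT was 46.2. All 7 had UMIs in the amnion-like cells of every library of both genotypes. The sum was not split by gene, so a single gene could carry it. Markers of other lineages also differed in these cells, with ExE-Mech markers at 472 and 102.1 in the wild-type and 943 and 1272 in the mutant libraries of Day 14 and trophoblast markers at 812 and 196 against 1086 and 890. Amnion markers were at 1438 and 1300 in the wild-type, 1537 and 1653 in the mutant Day 14 libraries and 2067 in the mutant Day 12 library. Epi markers thus summed to more than amnion markers in the mutant libraries and to less in the wild-type ones. The amnion-like cells of the genotypes are therefore not shown to be alike in makeup. The part of these markers in the result was not tested.

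**Figure D3:**
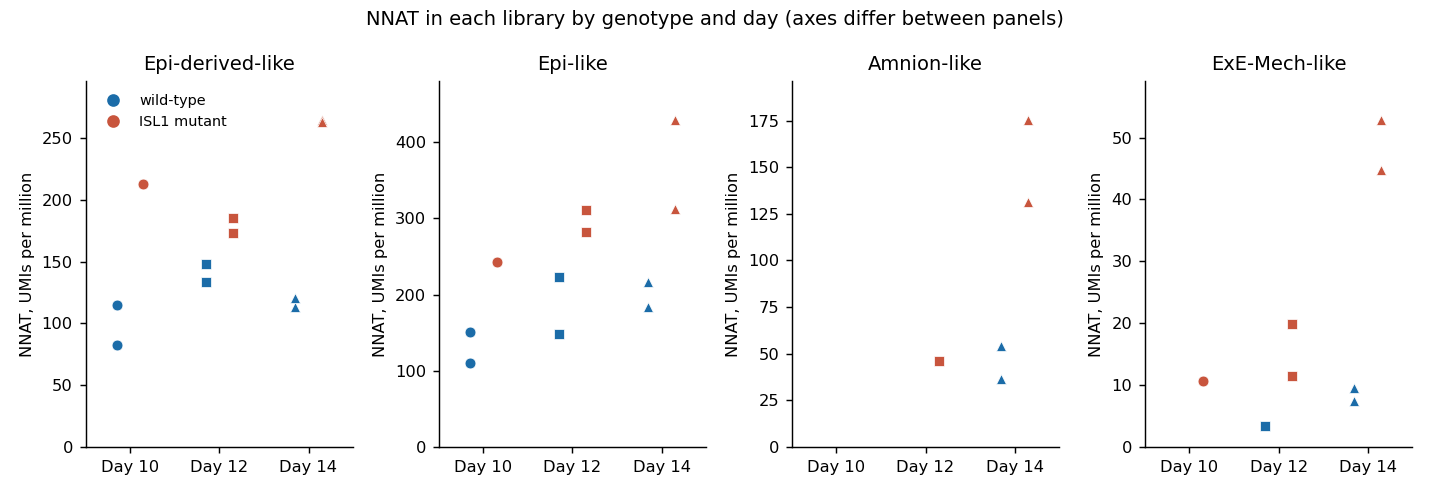
NNAT in CPM (vertical axes, linear from 0, with a scale of their own in each panel) by day in Epi-derived-like, Epi-like, amnion-like and ExE-Mech-like cells; a point is a library and colour gives the genotype. At Day 14 both mutant libraries lie above both wild-type libraries in all 4 panels, with the values given in the text. Epi-like and amnion-like cells are part of the Epi-derived-like cells, so the panels are not independent. The share of all genes that separate in this way was not counted.

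The SNRPN levels of the genotypes overlapped at Day 14 in Epi-derived-like, ExE-Mech-like, amnion-like, trophoblast-like and endoderm-like cells. The mutant minus wild-type difference was 0.33 ± 0.357 in Epi-derived-like cells (95% interval -0.59 to 1.25; edgeR adjusted p = 0.63), 0.21 ± 0.253 in ExE-Mech-like cells (adjusted p = 0.69), -0.42 ± 0.341 in amnion-like cells (adjusted p = 0.53) and -0.84 ± 0.731 in trophoblast-like cells (adjusted p = 0.63). In endoderm-like cells it was 0.10 ± 0.362 (adjusted p = 0.997). At Day 12 the endoderm-like values were 38.8 and 64.2 CPM in wild-type and 155 and 161 in mutant libraries, a difference of 1.61 ± 0.371 (adjusted p = 0.58). That difference did not pass after adjustment over 10711 genes, and the part of the trophoblast marker RNA in the wild-type Day 12 replicate 1 library was not tested. NNAT was too low in endoderm-like cells to enter the test, and in trophoblast-like cells its difference was 1.36 ± 1.13 (adjusted p = 0.62). At Day 14 the edgeR fit called 0 of 15083 genes in trophoblast-like cells (2096 at an unadjusted p under 0.05, 252 with DESeq2) and 0 of 10711 in endoderm-like cells (686 and 19, and 7 with the batch number as a block). At Day 12 it called 0.00808% of genes in Epi-derived-like and 0.00663% in trophoblast-like cells, neither member among them.

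From Day 12 to Day 14 neither gene passed the test in any lineage. In Epi-derived-like cells SNRPN differed by -0.09 ± 0.357 in wild-type and 0.20 ± 0.357 in mutant libraries (edgeR adjusted p = 0.98 and 0.84), and NNAT by -0.26 ± 0.239 and 0.63 ± 0.238 (adjusted p = 0.85 and 0.27). In ExE-Mech-like cells NNAT differed by 1.36 ± 0.465 in wild-type and 1.75 ± 0.320 in mutant libraries (adjusted p = 0.46 and 0.11), the former against a single wild-type Day 12 library, and DESeq2 called the second of these (adjusted p = 0.000595). The test of the mutant effect at Day 14 against that at Day 12 gave 0.90 ± 0.337 for NNAT in Epi-derived-like cells (adjusted p = 0.66) and 0.39 ± 0.553 in ExE-Mech-like cells (adjusted p = 0.82). Between the days the edgeR fit called 0 genes in wild-type Epi-derived-like cells (883 at an unadjusted p under 0.05, 11 with DESeq2), 0.00808% of genes in mutant Epi-derived-like cells and 0.00663% in mutant trophoblast-like cells.

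The share of cells with at least 1 UMI depends on depth, so cells were also thinned to 5000 UMIs each. At equal depth, over the libraries of Day 12 and Day 14, 66.7% to 100% of Epi-derived-like cells had an SNRPN UMI, compared with 49.2% to 79.2% of ExE-Mech-like, 6.06% to 56% of endoderm-like and 1.80% to 15.1% of trophoblast-like cells. Before thinning these shares were 77.9% to 100%, 85.4% to 100%, 42.4% to 93.6% and 10.2% to 42.3%. The ranges of Epi-derived-like and ExE-Mech-like cells overlapped before and after thinning, and the trophoblast-like range lay below both after thinning.

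At Day 12 and Day 14 NNAT was found at equal depth in 30.8% to 42.9% of Epi-derived-like cells in the 4 wild-type libraries and in 44.7% to 58.6% in the 4 mutant libraries, with no overlap. The Day 10 shares, a description only, were 28.9% and 31.4% in wild-type and 50% in the mutant library. The highest wild-type share came from the library with 14 such cells, and its interval (17.7% to 71.1%) spans all mutant shares. Before thinning the order was the reverse, also with no overlap: 76.8% to 100% in the wild-type and 60.7% to 70.7% in the mutant libraries of Day 12 and Day 14. The mutant cells were less deeply sequenced (a median of 6772 to 19154 UMIs per Epi-derived-like cell against 21736 to 136240 in wild-type libraries), so no order is read from the shares before thinning. Unthinned shares were 11.3% to 39.8% in ExE-Mech-like and 0.339% to 3.15% in trophoblast-like cells. In ExE-Mech-like cells the thinned share was 1.04% in the wild-type Day 12 library, 0 of 161 cells (which allows up to 1.86%) and 5.07% at Day 14 in wild-type, and in mutant libraries 6.47% and 8.20% at Day 12 and 20.4% and 17.2% at Day 14. In trophoblast-like cells the share over all 11 libraries reached at most 0.877%, and libraries with none allow up to 1.13%. Whether the NNAT UMIs of these cells or of ExE-Mech-like cells were free RNA was not tested. The ExE-Mech-like shares of the mutant libraries and of wild-type Day 14 replicate 2 were above the trophoblast-like shares. Those of the other wild-type libraries rest on 2 of 193 and 0 of 161 cells at this depth, too few for this comparison. Before thinning 22 of 194 (11.3%) ExE-Mech-like cells of wild-type Day 12 replicate 2 and 49 of 161 (30.4%) of wild-type Day 14 replicate 1 had NNAT. In the trophoblast-like cells of the same libraries the shares were 2.27% and 3.15%. These shares depend on depth, so no order is read from them. The levels were 3.40 and 7.36 CPM in ExE-Mech-like against 1.18 and 0.746 in trophoblast-like cells. The mutant Day 12 shares lay nearer to wild-type Day 14 replicate 2 than to the mutant Day 14 shares. Over all days thinning left out 150 Epi-derived-like and 222 ExE-Mech-like cells of mutant libraries and 0 and 1 of wild-type libraries. Mutant Day 14 replicate 1, with the highest NNAT shares (58.6% and 20.4%), lost 143 of 399 and 215 of 2485 of these cells. Its thinned shares thus describe only its deeper cells. The SNRPN share of its Epi-derived-like cells was 77.9% before thinning and 85.2% among the 256 cells kept. What the cells left out change in the NNAT shares was not tested.

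**Figure D4:**
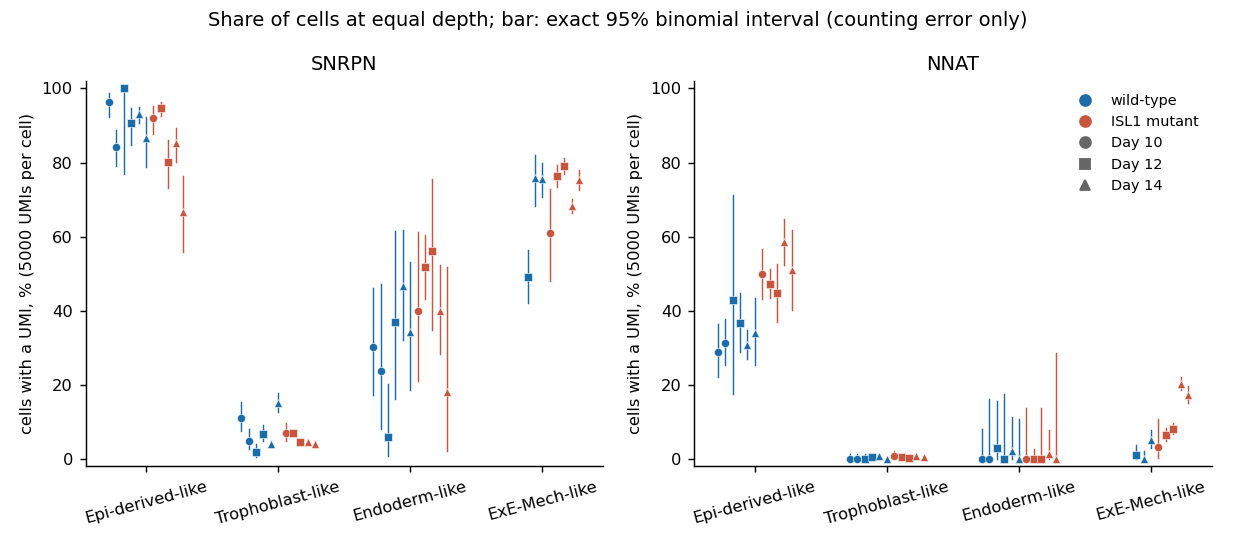
Share of cells with at least 1 UMI of SNRPN or NNAT (vertical axis, percent, each cell thinned to 5000 UMIs) by lineage; a point is a library, colour gives the genotype, shape the day, and the bar is the exact 95% binomial interval, which covers counting error only. NNAT in Epi-derived-like cells at Day 12 and Day 14 lies between 30.8% and 42.9% in wild-type and between 44.7% and 58.6% in mutant libraries.

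Over the 8 libraries of Day 12 and Day 14, 1483 of 2136 Epi-derived-like cells had UMIs of both genes, 533 of SNRPN alone, 48 of NNAT alone and 72 of neither. Across the cells of each of these libraries the levels of the 2 genes correlated with Pearson's r of 0.094 to 0.547 in Epi-derived-like cells (median 0.320), 14 to 672 cells sharing a library. Within Epi-like cells alone the median was 0.111, and in ExE-Mech-like cells it was -0.0182 (7 libraries). Over the subclusters of a library the levels varied widely, for instance from 178 to 1302 CPM for SNRPN and from 24.1 to 231 for NNAT among the 7 subclusters of the wild-type Day 14 replicate 1 library.

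Of 20 genes listed as mainly paternally expressed, 4 had a row with a symbol: SNRPN, NNAT, MEST and DLK1. Of 13 listed as mainly maternally expressed in at least some tissues, 3 had: CDKN1C, PHLDA2 and GNAS. Because a gene has a symbol here only if the study's tables list it, these lists hold genes that differ between cell groups more often than others, and they are described without a test of the list. Among the 4 paternally expressed genes 3 were higher in Epi-derived-like than in trophoblast-like cells and none lower, where 34.1% of all genes tested were higher and 61% passed in either direction, with a median log2 difference of 4.46 against 0.10 over all genes. SNRPN and NNAT, chosen for leading epiblast cells, are 2 of the 3, so nothing is read from this count. Of the other genes DLK1 was higher (2.90 ± 0.795, edgeR adjusted p = 0.0026), and MEST did not pass (-0.57 ± 0.357, adjusted p = 0.16). Among the 3 maternally expressed genes 2 were lower and 1 higher, with a median of -5.29.

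Summed over whole lineages, MEST, CDKN1C, PHLDA2 and GNAS were highest outside the Epi-derived-like cells. Their amnion-like subtype differed from the whole: MEST there ran from 53.9 to 1185 CPM at Day 12 and Day 14, with a median of 530. The MEST median was 492 in ExE-Mech-like cells, and Epi-like cells held 29.3 to 89.1. The mesoderm-like cells, found in 1 library, held 49.2, within the Epi-like range. GNAS in amnion-like cells ran from 788 to 1411 (median 907), against a median of 1006 in ExE-Mech-like cells. MEST, of the alpha/beta hydrolase family and known from mesoderm, was highest among the 4 lineages in ExE-Mech-like cells. It stood there at 320 to 614 CPM at Day 12 and Day 14, against 39.3 to 349 in all Epi-derived-like cells (Epi-derived minus ExE-Mech -1.76 ± 0.370, edgeR adjusted p = 0.00032). CDKN1C, a cyclin-dependent kinase inhibitor, stood at 4171 to 9810 in trophoblast-like and 0 to 237 in Epi-derived-like cells (-6.84 ± 0.728, adjusted p = 2.5e-08). PHLDA2, which limits placental growth, was likewise lower in Epi-derived-like cells (-5.29 ± 0.511, adjusted p = 4.5e-09). GNAS, the stimulatory G protein alpha subunit, lay between 343 and 1198 over the 4 lineages and was higher in Epi-derived-like than in trophoblast-like cells (0.66 ± 0.0995, adjusted p = 2.1e-06).

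DLK1, a transmembrane protein related to the Notch ligands, also stood higher in mutant libraries. In ExE-Mech-like cells it was 0.325 and 0.128 CPM in the wild-type and 85.0 and 105 in the mutant libraries of Day 14, a fitted difference of 8.73 ± 0.555 (edgeR adjusted p = 0.012) that did not pass 1%. The wild-type values there rest on 3 UMIs and 1 UMI, so the size of the fitted difference depends on the prior count of the fit. In Epi-derived-like cells it was 2.89 and 5.99 against 79.9 and 172 (5.07 ± 0.602, adjusted p = 0.0104), and in Epi-like cells alone 2.40 and 5.06 against 1.83 and 5.45 (0.39 ± 0.758, adjusted p = 0.81). For MEST in ExE-Mech-like cells the difference was 0.01 ± 0.255 (adjusted p = 0.99). In the edgeR fits with the low-count filter, no gene of either imprinted list passed 1% between the genotypes at Day 14 in Epi-derived-like, ExE-Mech-like or amnion-like cells.

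**Figure D5:**
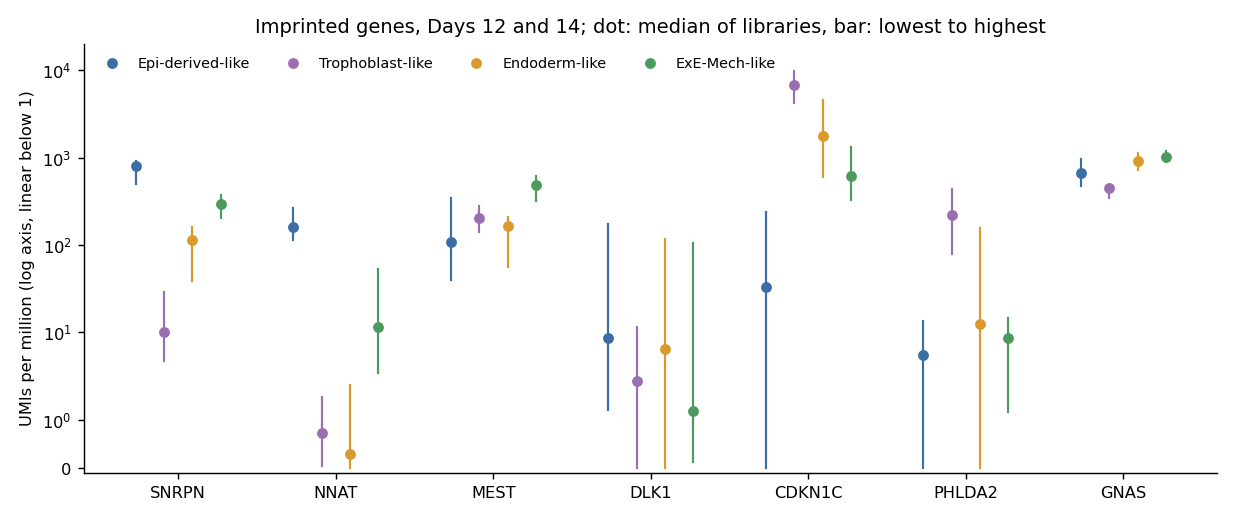
Levels in CPM (vertical axis, logarithmic above 1 and linear below) of the 7 listed imprinted genes with a row that a symbol names, by lineage at Day 12 and Day 14. A dot is the median over libraries and a bar runs from the lowest to the highest library. SNRPN and NNAT are highest in Epi-derived-like cells, MEST in ExE-Mech-like cells, and CDKN1C and PHLDA2 in trophoblast-like cells.

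SNRPG was the only other Sm core gene with a row that a symbol names, 2 of 8 with SNRPN. The others may have rows without a symbol, so their levels are not known here. Against trophoblast-like cells it did not follow SNRPN: its Epi-derived minus trophoblast difference was -0.03 ± 0.110 (edgeR adjusted p = 0.80), against 6.02 for SNRPN. Against endoderm-like cells both genes were higher in Epi-derived-like cells at 1%, where 24% of all genes were. Against ExE-Mech-like cells SNRPG did not pass. At Day 14 it was lower in mutant Epi-like cells, at 172 and 166 CPM against 568 and 532 in wild-type (-1.61 ± 0.259, adjusted p = 0.0042), where 0.96% of 10521 genes passed. In all Epi-derived-like cells this difference was -1.46 ± 0.282 and did not pass (adjusted p = 0.036). The Day 14 values of both mutant libraries were below both wild-type values in the other classes too. How many of all genes separated in this way was not counted. The difference was -0.51 in trophoblast-like, -0.95 in endoderm-like, -0.93 in ExE-Mech-like and -1.71 in amnion-like cells (edgeR adjusted p = 0.34, 0.69, 0.23 and 0.043), none passing.

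Of 10 genes that set or keep DNA methylation and imprints, 3 had a row with a symbol. DNMT3B, a de novo methyltransferase, was also highest in Epi-derived-like cells, with 124 to 341 CPM in Epi-derived-like cells at Day 12 and Day 14 and a difference of 4.52 ± 0.210 against trophoblast-like cells (edgeR adjusted p = 4.8e-15). It was also lower in amnion-like than in Epi-like cells (-3.42 ± 0.262, adjusted p = 7.4e-06). DNMT3L, its catalytically inactive cofactor, did not differ between Epi-derived-like and trophoblast-like cells at 1% (0.79 ± 0.454, adjusted p = 0.13). DPPA3, which protects methylation in the early embryo, was higher in endoderm-like than in Epi-derived-like cells (Epi-derived minus endoderm -3.93 ± 0.438, adjusted p = 5.0e-08).

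Among 1019 genes with a symbol, the pattern over the 41 sums per library and lineage was most like that of SNRPN in CDCA7L (Pearson's r of log2 levels 0.924), FABP3 (0.922), NAP1L1 (0.919), RBPMS2 (0.908) and PSIP1 (0.907). For NNAT these were LDB2 (0.953), DPPA4 (0.934), CRMP1 (0.909), ENO3 (0.907) and UCHL1 (0.903). DPPA4 is one of the markers that named the Epi-derived-like clusters. With each other SNRPN and NNAT correlated at 0.831, which put NNAT at rank 31 for SNRPN and SNRPN at rank 35 for NNAT. With 10 in place of 1 added to CPM before the logarithm these ranks were 19 and 42, and LDB2 moved from rank 1 to rank 9 for NNAT. The sums of a library share its embryos and depth, and the genes with a symbol are those in the study's tables, so these values describe the order of genes in these data. The sums include the Day 10 libraries, whose levels chose both genes. Over the 31 sums of Day 12 and Day 14 alone, 4 of the 5 genes named for SNRPN stayed among its first 5, but only 2 of the 5 named for NNAT did (LDB2 at 0.961 and DPPA4 at 0.936), and the 2 genes correlated with each other at 0.811, at ranks 50 and 46.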

How the data were processed

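Cynomolgus embryos were profiled in 11 droplet libraries. Per the study's methods, the authors counted UMIs with Cell Ranger 3.1.0 against the Ensembl Macaca_fascicularis_5.0 annotation, discarded cells rich in mitochondrial reads as well as genes found in fewer than 3 cells, and removed ambient RNA with SoupX. The deposited corrected values are expected counts (whole numbers, unscaled). The deposited uncorrected values are counts and served as an alternative. The correction had removed 0.196% to 2.98% of UMIs in wild-type and 1.04% to 8.77% in mutant libraries. Of 33539 uncorrected cells, 209 had no corrected values and were left out. The supplementary tables pair 1020 of 19367 identifiers with a symbol, and 11 of the 50 listed genes have a row with a symbol. The other listed genes may have rows that could not be named.

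No deposited table gives cell types. Cells of each library were clustered with the Leiden method (leidenalg 0.10.2, resolution 1) on residuals of 2000 genes, without the reported genes. The rule that names clusters from marker lists was written after clusters and the members' levels in them had been seen and was revised more than once, and the members and gene lists were chosen with earlier results of these data known. The named genes were the members, every listed gene with a symbol and a row that passed the filter, and the 5 genes most correlated with each member. No doublet caller was run. Cells over 2 times their library's median UMI total (0.923% to 14.4%) were left out as an alternative.

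UMIs were summed per library and class (at least 5 cells) and tested with edgeR 4.0.16 (R 4.3.3) by its two-sided quasi-likelihood test after TMM scaling and the filterByExpr filter, at 1% after Benjamini-Hochberg adjustment over all genes tested. DESeq2 1.42.0 was an alternative. Lineages and subtypes had the library as a block, mutant and day contrasts did not. On simulated counts, edgeR recovered a log2 change of 1 between the Day 14 genotypes in few genes. The shares were 7% in Epi-derived-like, 5% in ExE-Mech-like, 2% in trophoblast-like, 0% in endoderm-like and 8% in amnion-like cells. For a log2 change of 3 they were 97%, 98%, 95%, 81% and 93%. Between Epi-derived-like and ExE-Mech-like cells they were 57% and 96%, and between amnion-like and Epi-like cells 4% and 97%. The changed genes were drawn only from those above a minimum mean level, so the shares do not cover genes at low levels. Apart from the added change each gene had the same mean in all sums, and no shift common to a library was added. A difference of about 1 that did not pass is thus not shown to be absent. In the data themselves 0 of 12813 genes passed in ExE-Mech-like cells at Day 14, with NNAT at 2.64. Larger differences that did not pass are therefore not shown to be absent either. The labels carry batch numbers but do not say that a number is the same batch in different groups. Differences between the 2 replicates of a group were correlated between groups. The values were -0.177 to 0.414 over 10 pairs in Epi-derived-like cells (median 0.0208, 2 pairs over 0.1). They were -0.367 to 0.379 over 10 pairs in trophoblast-like cells (median -0.0178) and 0.0813 to 0.560 over 3 pairs in ExE-Mech-like cells. The 1 amnion-like pair gave -0.184. Fits with the batch number as a block therefore rest on a pairing that the labels do not state. Intervals of shares are exact binomial (95%), and shares of 0 are given with the limit of 3 counts. Both cover counting error only. Intervals of log2 differences (95%) use the residual degrees of freedom of the fit alone. The edgeR p-values also draw on the spread of other genes, so an interval and the p-value beside it differ in basis. No sequence is printed, since no sequence of these genes was used here.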

Additional observations from a re-analysis of the deposited data

How the results depend on the processing

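Day 12 genotype differences and differences of mutant effects were counted here only in Epi-derived-like and ExE-Mech-like cells. Epi-like cells entered the genotype and day contrasts only as an alternative. Counting each of the included member differences once under each alternative, 788 kept their direction and their side of the 1% threshold. Of the rest 14 newly passed, 5 no longer passed and 33 changed direction. No member difference that passed changed direction. Of the counts of genes passing, 272 stayed within 1.5 times and the rest did not. Where a value changed, the cause was not tested.

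With wild-type libraries only, SNRPN gave 1.70 for Epi-derived minus ExE-Mech and -1.76 for endoderm minus ExE-Mech, NNAT gave -2.80 for endoderm minus ExE-Mech, none passing, and the genes called numbered 3469 for Epi-derived against endoderm, 3268 for Epi-derived against ExE-Mech, 3639 for trophoblast against ExE-Mech and 2829 for endoderm against ExE-Mech. With mutant libraries only, 2689 genes were called for Epi-derived against endoderm and 3111 for endoderm against ExE-Mech, and NNAT gave 0.0377 for trophoblast minus endoderm. Without cells over 2 times the median UMI total, that value was 0.0106, SNRPN in Epi-derived-like cells gave -0.0119 for the difference of the mutant effects and -0.12 from Day 12 to Day 14 in mutants, and the counts were 7 for the latter contrast, 1 for mutant against wild-type ExE-Mech-like cells at Day 14 and 2 for amnion-like cells. With lineages from each cell's highest marker list, which was not applied to the subtypes, NNAT gave -3.69 for trophoblast minus endoderm and -0.79 for endoderm minus ExE-Mech. The same assignment gave 1.26 for NNAT in wild-type trophoblast-like cells, 0.43 for SNRPN in mutant endoderm-like cells and 0.00222 for SNRPN in mutant ExE-Mech-like cells from Day 12 to Day 14, with 1 gene called in the last of these and 1 in Epi-derived-like cells between the genotypes at Day 14.

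Without the replicate block for the library, NNAT gave -1.87 for amnion minus Epi, with 584 genes called, and 66 genes were called for mesoderm minus Epi. With the batch number of the labels as a replicate block in the mutant and day contrasts no member call changed, and at Day 14 the genotypes differed in 7 genes in endoderm-like and 76 in amnion-like cells, and the days in 2 in mutant Epi-derived-like, 0 in mutant trophoblast-like, 1 in wild-type endoderm-like and 4 in mutant endoderm-like cells.

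Without a filter on low counts, NNAT passed for mesoderm minus Epi (-2.08, adjusted p = 8.0e-07) and for mutant minus wild-type at Day 14 in Epi-derived-like (1.19, adjusted p = 0.0025), ExE-Mech-like (2.60, adjusted p = 0.0012) and amnion-like cells (1.78, adjusted p = 0.000196). The counts were then 2402 for amnion and 615 for mesoderm against Epi, 843, 1, 63, 31 and 377 between the genotypes at Day 14 in Epi-derived-like, trophoblast-like, endoderm-like, ExE-Mech-like and amnion-like cells, 164, 49 and 1 between the days in wild-type Epi-derived-like, endoderm-like and ExE-Mech-like cells, and 385, 2, 38 and 36 in mutant Epi-derived-like, trophoblast-like, endoderm-like and ExE-Mech-like cells.

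With DESeq2, NNAT passed for mesoderm minus Epi (-2.07, adjusted p = 0.0082), for mutant minus wild-type in Epi-derived-like cells at Day 14 (1.199, adjusted p = 0.0015) and in ExE-Mech-like cells at Day 14 (2.60, adjusted p = 2.1e-08) and Day 12 (2.25, adjusted p = 0.0068, against a single wild-type library with no replicate), and from Day 12 to Day 14 in mutant ExE-Mech-like cells (1.73, adjusted p = 0.000595). Its counts were 378, 252, 19, 215 and 55 between the genotypes at Day 14 in the order given above, 11, 84, 3 and 20 between the days in wild-type and 103, 167, 12 and 227 in mutant Epi-derived-like, trophoblast-like, endoderm-like and ExE-Mech-like cells.

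At cluster resolution 2, NNAT passed for mesoderm minus Epi (-2.17, adjusted p = 0.0011), and the counts at Day 14 were 1 in Epi-derived-like, 2 in endoderm-like and 0 in amnion-like cells, and 0 and 2 between the days in mutant Epi-derived-like and endoderm-like cells. With uncorrected counts, 2 genes were called in amnion-like cells at Day 14 and 0 in mutant trophoblast-like cells between the days. With Epi-like cells alone in place of all Epi-derived-like cells, an alternative chosen after seeing the data, 101 genes were called between the genotypes at Day 14 and 43 between the days in mutants, the difference of mutant effects for SNRPN was -0.0303, and from Day 12 to Day 14 in wild-type SNRPN gave 0.34 and NNAT 0.16. Without the Day 10 libraries, also chosen after seeing the data, no member call changed, and 2 genes were called between the genotypes in Epi-derived-like cells at Day 14 and 0 between the days in mutant trophoblast-like cells.

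Leaving out each library in turn, the mutant minus wild-type difference at Day 14 ranged from -0.0894 to 0.78 for SNRPN in Epi-derived-like cells (1 to 44 genes called), from -1.43 to 0.15 in trophoblast-like (0 to 1), from -0.12 to 0.52 in endoderm-like (0 to 3), from -0.10 to 0.46 in ExE-Mech-like (0 to 2) and from -0.76 to 0.000121 in amnion-like cells, where NNAT ranged from 1.44 to 2.14 and the count from 2 to 677. The amnion-like count was 14 with all libraries, 2 without mutant Day 12 replicate 2, 4 without mutant Day 14 replicate 2, 677 without wild-type Day 14 replicate 1 and 270 without wild-type Day 14 replicate 2. The Epi-derived-like count of 9 moved by over 1.5 times without any of the 11 libraries, and was lowest without wild-type Day 14 replicate 2 and highest without wild-type Day 12 replicate 2. At Day 12 SNRPN in Epi-derived-like cells ranged from -0.31 to 0.38, and the difference of mutant effects from -0.12 to 0.74. From Day 12 to Day 14 SNRPN ranged from -0.54 to 0.26 in wild-type (0 to 3 genes) and -0.10 to 0.55 in mutant Epi-derived-like cells (0 to 19), from -0.21 to 1.85 in wild-type (0 to 1) and -0.62 to 0.24 in mutant trophoblast-like cells (0 to 3), and from -0.35 to 0.21 in mutant ExE-Mech-like cells (0 to 1). NNAT in trophoblast-like cells ranged from -2.34 to 3.24 in wild-type and -0.23 to 0.96 in mutants. In endoderm-like cells 0 to 14 genes were called in wild-type and 0 to 2 in mutants. Trophoblast minus endoderm ranged from -0.61 to 0.11 for NNAT. For amnion minus Epi 566 to 1573 genes were called, with 566 without wild-type Day 14 replicate 1 and 960 without mutant Day 12 replicate 2. For mesoderm minus Epi NNAT ranged from -2.19 to -2.01 and passed without mutant Day 14 replicate 2 (adjusted p = 0.0022); it has no value without wild-type Day 14 replicate 1, the library that held the mesoderm-like cells. Where a group was left with 1 library, that library was assumed to vary like the others. With 1 to 3 embryos per library and 1 or 2 libraries per group, the number of libraries limits every comparison between genotypes, and NNAT in endoderm-like cells rests on 9 UMIs.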

Other observations

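SNORD116-14, a small nucleolar RNA of a cluster that lies downstream of SNRPN in the Prader-Willi region, was found in some libraries only; it was singled out after its values were seen. In Epi-derived-like cells it stood at 344 CPM in wild-type Day 10 replicate 1, where 99.4% of the cells had a UMI, at 36.3 CPM in the mutant Day 10 library (23.7% of cells) and at 94.4 CPM in mutant Day 14 replicate 1 (28.3% of cells). Wild-type Day 10 replicate 2 held 4 UMIs in these cells. The other 7 libraries held none in any lineage, so replicates of the same group differed: mutant Day 14 replicate 2 was at 0 UMIs, which allows up to 1.16 CPM. In the libraries that held it, other lineages did too, with 26.1 CPM in the ExE-Mech-like cells and 24.9 CPM in the endoderm-like cells of mutant Day 14 replicate 1. SNRPN in the Epi-derived-like cells of these 4 libraries was 677, 474, 757 and 787 CPM, against 505 to 909 CPM in the other 7 libraries. The difference between libraries was not tested against any property of the libraries.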
